A study of Homo sapiens with 24 samples.

Results

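The mitochondrial ribosomal protein genes are the nuclear genes whose products build the ribosome inside mitochondria. Members were all listed genes with a symbol of MRPL or MRPS, a number and at most 1 further letter A, B or C, and a mean of at least 1 TPM (a level per gene length, scaled to the same total in each library) over 24 libraries. The rule found 77 genes among 25341 named genes, 48 with the prefix MRPL (large subunit) and 29 with the prefix MRPS (small subunit). All 77 symbols that matched also passed the level, with MRPS24 nearest to it at a mean of 8.51 TPM, so no matching gene lay outside. All 77 were among the 15113 genes tested.

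Total RNA was sequenced from 4 human multiple myeloma cell lines after knock down of IRF4, a transcription factor on which plasma cells and myeloma cells depend. siIRF4 cells of each line were electroporated with a pool of siRNAs against IRF4 and are labelled with 48 hours, while CTRL cells are labelled DMSO and 0 hours, with 3 libraries in each group of each line. The lines were MM1R and MM1S, which are dexamethasone-resistant and dexamethasone-sensitive derivatives of 1 myeloma culture, and KMS-12-BM and KMS-12-PE, which were derived from bone marrow and pleural effusion of 1 source. All cells were grown in the same serum-containing medium. The labels name no control siRNA, so siRNA delivery, electroporation, DMSO, time and loss of IRF4 cannot be told apart. They also do not say that replicates were separate cultures, so each p-value measures only the spread between these libraries, which may be technical.

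The mitochondrial ribosome translates the few mRNAs of mitochondrial DNA, which encode core subunits of the respiratory chain and ATP synthase. Its RNAs come from mitochondrial DNA, whereas its proteins are encoded in the nucleus, made in the cytosol and imported. Some members descend from bacterial ribosomal proteins and others are found only in mitochondria. Loss of single members causes mitochondrial disease, and plasma cells and myeloma cells carry a high load of protein synthesis.

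Start-site sequences of 68 of the 77 members were found in RefSeq (build GRCh38.p14), each spanning 250 bases before to 50 bases after the first listed start. The motif AAGATGGCG, part of the core recognised by the zinc finger factor YY1, was searched on both strands. It occurred in 13 of 68 members (19.1%), against 3.9% of the 10285 promoters of tested genes and 1.8% of all 27305 promoters, and in 2 of 45 cytosolic ribosomal protein promoters. The sites of the 6 members with the highest mean TPM are shown because, of the motifs searched, this one differed most in share between members and promoters of tested genes. Capitals mark the motif as it reads on the gene's strand, 5′ to 3′, and MRPL32 and MRPL36 carry its reverse complement CGCCATCTT.
MRPL32 (chr7:42932143-42932172, plus strand): acccgcgctcCGCCATCTTtacccgaagag
MRPL36 (chr5:1799854-1799883, minus strand): ccccccccgcCGCCATCTTccttcctggca
MRPL50 (chr9:101398576-101398605, minus strand): gatctcatcgAAGATGGCGgcgcgatctgt
MRPL38 (chr17:75904859-75904888, minus strand): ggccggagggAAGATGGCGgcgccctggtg
MRPS18A (chr6:43687763-43687792, minus strand): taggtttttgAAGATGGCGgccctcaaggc
MRPS10 (chr6:42217833-42217862, minus strand): cgggaccggcAAGATGGCGgcgcggacagc
In MRPL50, MRPL38, MRPS18A and MRPS10 the motif lay within 50 bases downstream of the listed start. The motif holds the letters ATG, and whether these sites span the start codon was not tested. AAGATGGCG was present in 6 of 40 members that fell on average after siIRF4 (15.0%) and in 7 of 28 that did not (25.0%).

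Other motifs were searched on both strands of the same windows, and a window may hold several. The ETS core CCGGAAGT occurred in 16.2% of members, against 8.5% of promoters of tested genes. It was present in 7 of 40 members that fell (17.5%) and in 4 of 28 that did not (14.3%). The motif GCGCANGCG of NRF1, a regulator of nuclear genes for mitochondrial proteins, occurred in 19.1% of members and 14.3% of promoters of tested genes, in 6 of 40 members that fell and in 7 of 28 that did not. The E-box CACGTG, bound by MYC, occurred in 8.8% of members and 10.1% of promoters of tested genes. Of members that fell, 4 of 40 carried it (10.0%), and of those that did not, 2 of 28 (7.1%). The interferon-response core GAAANNGAA occurred in 10.3% of members and 6.6% of promoters of tested genes, in 2 of 40 members that fell and in 5 of 28 that did not. The ETS-IRF composite GGAANNGAA, the kind of element that IRF4 binds with PU.1 in B cells, occurred in 10.3% of members and 7.6% of promoters of tested genes. This composite was present in 5 of 40 members that fell (12.5%) and in 2 of 28 that did not (7.1%). Matches of these short motifs are a description of the letters, not of binding.

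Upstream sequences of MRPL37 and MRPL14 are shown because these genes had the lowest and the highest log2(TPM + 1) changes in both MM1 lines. Capitals mark the reverse complement CGCNTGCGC of the NRF1 motif and then the E-box in the 250 bases before the start of MRPL37, and the NRF1 motif in 30 bases of MRPL14. The first base of the NRF1 motif lay 186 bases before the start in MRPL37 and 123 bases before it in MRPL14.
MRPL37 (chr1:54199917-54200166, plus strand): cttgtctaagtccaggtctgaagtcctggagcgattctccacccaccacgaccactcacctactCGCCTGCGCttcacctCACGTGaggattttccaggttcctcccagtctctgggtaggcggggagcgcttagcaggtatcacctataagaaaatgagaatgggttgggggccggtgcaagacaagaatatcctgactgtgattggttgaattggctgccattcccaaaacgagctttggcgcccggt
MRPL14 (chr6:44127412-44127441, minus strand): tgggcctggcGCGCAGGCGctaggaagagg

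Depth lay between 17.3 and 27.4 M recovered reads per library, and a member had at least 24 reads in each library, with a median of 1405. IRF4 mRNA averaged 291.0 ± 27.8, 141 ± 12.4, 222 ± 18.0 and 155 ± 4.19 TPM in siIRF4 cells of MM1R, MM1S, KMS-12-BM and KMS-12-PE, against 380.3 ± 17.3, 283 ± 15.2, 361 ± 3.39 and 327 ± 10.3 TPM in CTRL cells (SD, n = 3 each). Its log2 changes were −0.39, −1.01, −0.70 and −1.07, so the IRF4 change was smallest in MM1R. The groups did not overlap in any of the 4 lines. The summed TPM of 10 plasma cell markers, IRF4 among them, was lower in siIRF4 cells of each line, for example 1570 to 1590 against 2120 to 2140 in CTRL cells of KMS-12-PE. In MM1R and KMS-12-BM all 6 stromal markers were under 1 TPM in both groups. In MM1S the stromal markers summed to 63.1 to 84.0 TPM in siIRF4 cells and 57.5 to 124 TPM in CTRL cells. The 6 myeloid markers summed to 63.4 to 169 TPM in siIRF4 cells and 106 to 173 TPM in CTRL cells of MM1S. In KMS-12-PE 6 myeloid markers summed to 36.3 to 51.5 TPM in siIRF4 cells and 147 to 183 TPM in CTRL cells, and the stromal markers to 19.6 to 27.3 and 58.0 to 87.8 TPM. In MM1R the myeloid sum was higher in siIRF4 cells, 93.1 to 99.7 TPM against 22.6 to 27.5 TPM in CTRL cells, with 5 of 6 markers under 1 TPM in both groups. In KMS-12-PE 6 T or NK cell markers summed to 36.2 to 41.5 TPM in siIRF4 cells and 17.7 to 20.5 TPM in CTRL cells. Sums of 5 epithelial markers were 213 to 226 TPM in siIRF4 cells and 210 to 215 TPM in CTRL cells of KMS-12-BM. In the same order they were 147 to 166 and 176 to 194 TPM in KMS-12-PE, and 21.6 to 54.3 and 50.1 to 71.0 TPM in MM1S. For MM1R they were 3.92 to 4.76 and 4.98 to 6.76 TPM. The part of these markers in the results below was not tested, nor was that of fewer cells against less RNA per cell, which bulk RNA cannot tell apart.

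Members were abundant genes. Their median of mean TPM was 113, against 16.2 over all genes tested, with 139 for large subunit and 92.1 for small subunit genes. The highest means were those of MRPS34 (547 TPM), a small subunit protein found only in mitochondria, of MRPL51 (540 TPM), a large subunit protein found only in mitochondria, and of MRPL20 (390 TPM), which has a bacterial homologue. The lowest means were those of MRPS24 (8.51 TPM), MRPS18B (19.2 TPM) and MRPL19 (23.1 TPM). The median member was at 86.3, 84.9, 108 and 126 TPM in siIRF4 cells of MM1R, MM1S, KMS-12-BM and KMS-12-PE, against 88.8, 103, 111 and 129 TPM in CTRL cells.

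On average over the 4 lines, members were mostly lower after IRF4 knock down, by small amounts. Of 77 members, 45 fell and 5 rose (limma, Benjamini-Hochberg adjusted p under 0.05), against 26.5% of all genes tested called lower and 33.1% called higher. The median log2 change of members was −0.07, against 0.02 over all genes tested. The changes ran the same way in both subunits. Of 48 large subunit genes 28 fell and 3 rose, with a median of −0.07, and of 29 small subunit genes 17 fell and 2 rose, with a median of −0.07. A total of 25 members fell on average and had a negative change in each of the 4 lines. The share of all genes tested with this pattern was not computed.

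**Figure D1:**
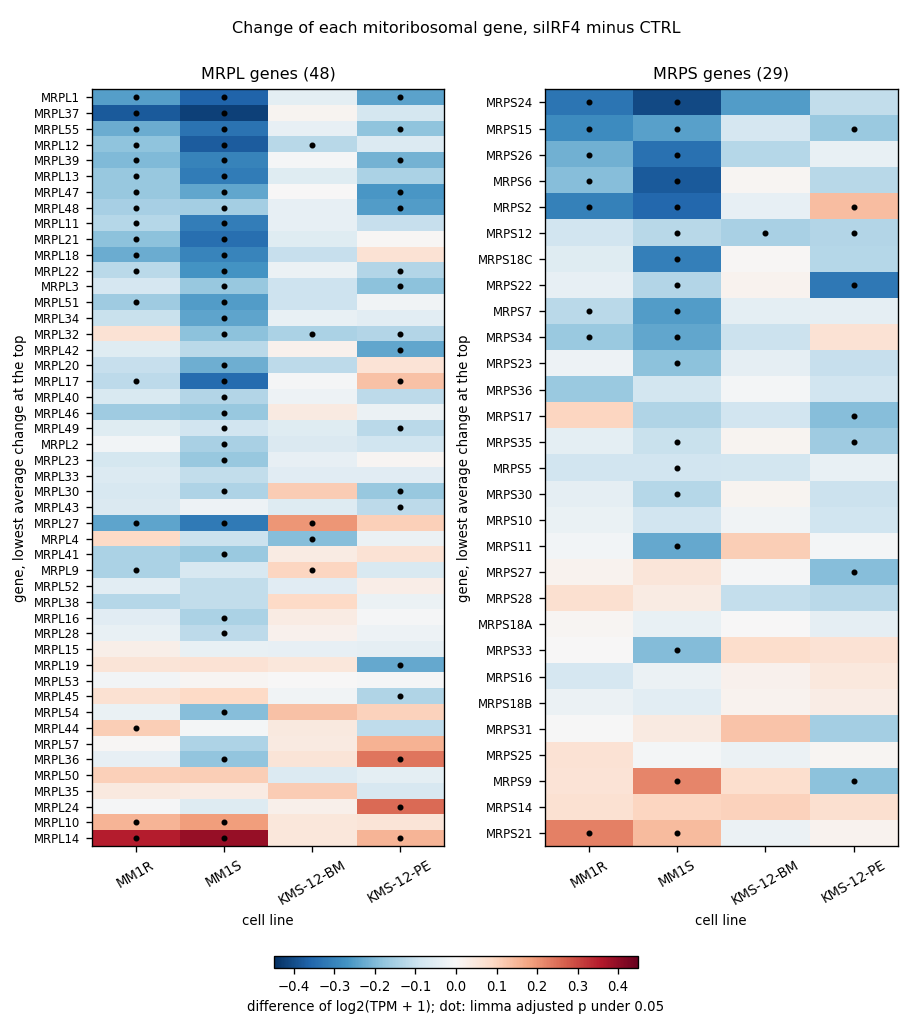
Heatmap of the log2 change of TPM, siIRF4 minus CTRL, for the 48 MRPL genes and the 29 MRPS genes (rows, lowest average change at the top) in the 4 lines (columns), where a dot marks an adjusted p under 0.05 in limma. Lower values fill most of the MM1S column, with 46 lower calls, while the KMS-12-BM column has 4 lower and 2 higher calls.

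The largest average falls were found in genes of different places in the ribosome. MRPS24, a homologue of a protein at the mRNA entry of the small subunit, changed by −0.27 ± 0.063 (difference of log2(TPM + 1), siIRF4 minus CTRL, ± SE, limma adjusted p = 0.000817), at low TPM. MRPL1, the protein of the mobile stalk beside the tRNA exit site, changed by −0.22 ± 0.038 (adjusted p = 3.42e-05). MRPL37, found only in mitochondria, changed by −0.22 ± 0.025 (adjusted p = 2.16e-07). MRPL12 forms the flexible stalk that recruits translation factors, and changed by −0.19 ± 0.020 (adjusted p = 9.04e-08). MRPL55 and MRPS15, both with bacterial homologues, changed by −0.19 ± 0.026 and −0.19 ± 0.023, MRPS26 by −0.18 ± 0.028 and MRPL39 by −0.18 ± 0.032. Among the most abundant members, MRPL51, MRPS34 and MRPL20 changed by −0.13, −0.11 and −0.09.

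MRPL12 shows the size of these differences in single libraries. In MM1S it had 310, 307 and 314 TPM in siIRF4 libraries and 394, 406 and 408 TPM in CTRL libraries. In MM1R it had 331, 341 and 349 TPM in siIRF4 libraries and 364, 405 and 390 TPM in CTRL libraries. The groups did not overlap in either line. In KMS-12-BM it had 238, 270 and 253 TPM in siIRF4 libraries and 272, 281 and 277 TPM in CTRL libraries, also without overlap, whereas in KMS-12-PE 457, 469 and 455 TPM in siIRF4 libraries overlapped with 481, 495 and 465 TPM in CTRL libraries.

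Only 5 members rose on average. MRPL14, a protein of the face that meets the small subunit, rose by 0.24 ± 0.019 (limma adjusted p = 7.77e-10). MRPL10, which anchors the MRPL12 stalk, rose by 0.11 ± 0.028 (adjusted p = 0.0018). MRPS21 rose by 0.09 ± 0.016 (adjusted p = 4.39e-05), MRPS14 by 0.08 ± 0.026 (adjusted p = 0.007) and MRPL24 by 0.05 ± 0.022 (adjusted p = 0.0424). The call of MRPL24 was lost under 21 of 31 alternative settings, and that of MRPS14 in the test on recovered reads (adjusted p = 0.0511).

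Counted line by line, the falls lay mainly in MM1S, MM1R and KMS-12-PE. In MM1S 46 members fell and 4 rose, against 21.1% and 29.1% of genes tested called lower and higher, with a member median of −0.14 beside 0.04 over all genes tested. In MM1R 23 fell and 4 rose (background 21.2% and 25.0%), with a median of −0.05 beside 0.03. In KMS-12-PE 21 fell and 5 rose (background 22.2% and 15.9%), with a median of −0.06 beside −0.02. In KMS-12-BM 4 fell and 2 rose (background 6.09% and 11.4%), with a median of −0.01 beside 0.04. The share of members called lower was thus near the background in both KMS-12 lines, somewhat above it in MM1R and far above it in MM1S. Members were abundant, and among the 10471 genes with a mean of at least 5 TPM a larger share was called lower in each line. Of these genes 2902, 2892, 891 and 2962 fell in MM1R, MM1S, KMS-12-BM and KMS-12-PE, with 28, 46, 5 and 22 members. The split over all genes depended on the processing in all 4 lines. In KMS-12-BM 1730 rose and 920 fell, against 1382 and 1472 with median-of-ratios scaling and 1477 and 1570 on recovered reads. In MM1S 4405 rose and 3191 fell, against 3517 and 3915 on recovered reads. In MM1R 3772 rose and 3208 fell, against 3322 and 3734, and in KMS-12-PE 2404 rose and 3360 fell, against 3054 and 2980. The member median was negative in each line under these scalings, and on recovered reads 54 members fell in MM1S. Without the first siIRF4 library of MM1R, 14 members fell there, and 2 rose without it or without the second CTRL library. In KMS-12-BM 0 members fell without the first siIRF4 library, and 1, 1 and 2 fell without CTRL libraries 1, 2 and 3, while 0 to 2 rose without single libraries of any line. In KMS-12-PE 3 rose without siIRF4 library 2 or 3.

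No member fell by the test in all 4 lines. In at least 3 lines 10 members fell, which were MRPL1, MRPL12, MRPL22, MRPL32, MRPL39, MRPL47, MRPL48, MRPL55, MRPS12 and MRPS15. In both MM1 lines 22 members fell and 3 rose, which were MRPL10, MRPL14 and MRPS21. A total of 6 members fell in at least 1 line and rose in another (MRPL9, MRPL17, MRPL27, MRPL36, MRPS2 and MRPS9), and 17 were called in no line. Shares of all genes tested with these patterns over lines were not computed, so these counts only describe the members. In TPM, the largest decrease of a member was by 28.9% in MM1S and the largest increase 31.1%, also in MM1S, with a median of −9.36% in MM1S against −0.93% in KMS-12-BM.

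Groups whose libraries did not overlap gave a like picture in the MM1 lines. In both KMS-12 lines the share of members below CTRL was above the background by this measure, whereas the share called lower was near it. The siIRF4 libraries all lay below the CTRL libraries for 28 members in MM1R (background 24.4%), 46 in MM1S (22.6%), 29 in KMS-12-PE (27.7%) and 15 in KMS-12-BM (12.3%). They did so in at least 3 lines for 20 members (background 11.3%) and in all 4 lines for 1 (background 3.29%), MRPL3, a core protein of the large subunit near the peptidyl transferase centre. MRPL3 had 185, 193 and 188 TPM in siIRF4 libraries of MM1R, against 201, 196 and 199 TPM in CTRL libraries. In KMS-12-PE it had 339, 330.1 and 332 TPM in siIRF4 libraries, against 365, 373 and 400 TPM in CTRL libraries. Its log2 changes were −0.08 in MM1R and −0.09 in KMS-12-BM, where the adjusted p was 0.0865 and 0.0716, and −0.17 in MM1S and −0.18 in KMS-12-PE, where it fell. The siIRF4 libraries all lay above the CTRL libraries for 6, 6, 9 and 9 members in MM1R, MM1S, KMS-12-BM and KMS-12-PE (background 29.4%, 32.4%, 22.0% and 19.7%), in at least 3 lines for MRPL14 (background 13.8%) and in all 4 lines for 0 members (background 3.94%).

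The summed TPM of the 77 members was lower in siIRF4 cells than in CTRL cells by 10.4% in MM1S, 5.37% in MM1R, 2.81% in KMS-12-PE and 2.34% in KMS-12-BM. In MM1S the sum was 9136 ± 199 TPM in siIRF4 cells and 10200 ± 99.1 TPM in CTRL cells (SD, n = 3 each). In MM1R it was 9068 ± 80.6 TPM in siIRF4 cells and 9583 ± 235 TPM in CTRL cells. In KMS-12-PE it was 12230 ± 162 TPM in siIRF4 cells and 12580 ± 251 TPM in CTRL cells. In these 3 lines the groups did not overlap. In KMS-12-BM the sums, 9866 ± 278 TPM in siIRF4 cells and 10100 ± 53.0 TPM in CTRL cells, overlapped.

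The balance of large and small subunit genes differed little between siIRF4 and CTRL cells. The ratio of summed large to summed small subunit TPM was 2.13 ± 0.00372 in siIRF4 cells of MM1S and 2.16 ± 0.0144 in CTRL cells, without overlap. In KMS-12-PE it was 2.44 ± 0.0209 in siIRF4 cells and 2.40 ± 0.0206 in CTRL cells, again without overlap but in the other direction. In MM1R the ratio was 2.15 ± 0.0149 in siIRF4 cells and 2.18 ± 0.0153 in CTRL cells, and in KMS-12-BM 2.19 ± 0.0143 and 2.17 ± 0.0189, with overlap in both lines. The differences of the ratio between siIRF4 and CTRL cells lay between −1.61% in MM1S and 1.83% in KMS-12-PE. The median log2 change of large subunit genes minus that of small subunit genes was 0.04 in KMS-12-PE, −0.02 in MM1S, −0.04 in MM1R and −0.01 in KMS-12-BM, where its sign turned with subunits by structure (0.01). Without the first siIRF4 library of KMS-12-PE it was 0.0024 there, without the second CTRL library of MM1S −0.06 there, and without siIRF4 library 3 or CTRL library 2 of KMS-12-BM 0.02 there. Taken for each siIRF4 library against the CTRL mean, it varied in sign in KMS-12-PE (−0.0235, 0.0409 and −0.0096) and in KMS-12-BM (−0.0009, 0.0301 and −0.0027). It was negative in each siIRF4 library of MM1R (−0.0572, −0.0322 and −0.0137) and of MM1S (−0.0171, −0.0242 and −0.082).

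**Figure D2:**
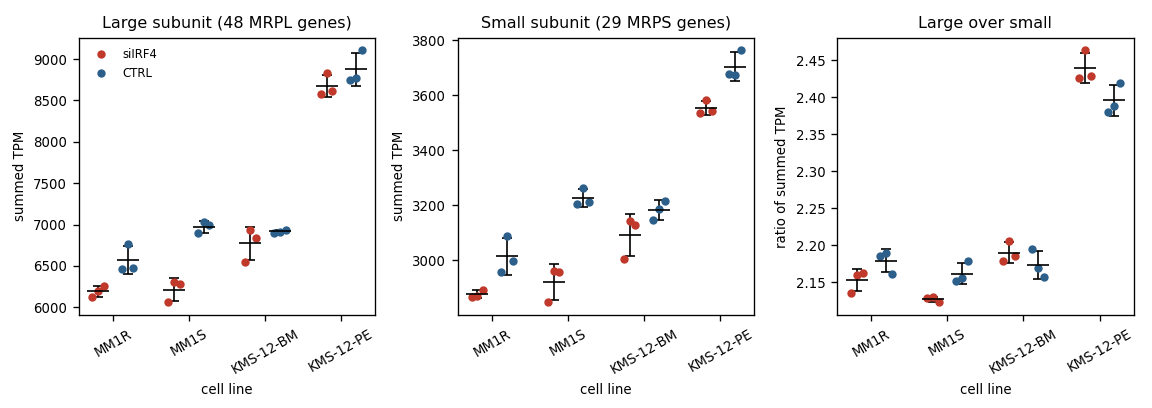
Summed TPM of the large subunit genes, of the small subunit genes and the ratio of both sums, with 1 point per library, siIRF4 (red) left of CTRL (blue) in each line, and bars at the mean ± SD (n = 3). The ratio is lower in siIRF4 than in CTRL libraries of MM1S and higher in KMS-12-PE.

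By subunit and line, 30 of 48 large and 16 of 29 small subunit genes fell in MM1S, and 2 and 2 rose. In MM1R 16 large and 7 small subunit genes fell, and 3 and 1 rose. In KMS-12-PE 14 large and 7 small subunit genes fell, and 4 and 1 rose. In KMS-12-BM 3 large and 1 small subunit gene fell, and 2 and 0 rose. Of all genes tested, 21.1%, 21.2%, 22.2% and 6.09% were called lower in MM1S, MM1R, KMS-12-PE and KMS-12-BM. In the same order 29.1%, 25.0%, 15.9% and 11.4% were called higher. The share of small subunit genes called lower was thus near the background in MM1R and KMS-12-PE, and both subunits were near it in KMS-12-BM.

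Symbols do not always give the place of a protein in the ribosome. MRPS30 and MRPS18A lie in the large subunit in ribosome structures, and MRPS36 is a subunit of the 2-oxoglutarate dehydrogenase complex. Grouped by structure, 29 of 50 large subunit genes fell and 3 rose on average, and 15 of 26 small subunit genes fell and 2 rose. Over all genes tested, 26.5% were called lower and 33.1% higher on average. Of the 3 homologues of 1 bacterial small subunit protein, MRPS18C fell (−0.12, adjusted p = 0.00253), while MRPS18A (−0.02, adjusted p = 0.502) and MRPS18B (−0.01, adjusted p = 0.841) did not pass the test. MRPS30 fell by 0.06 and MRPS36 by 0.09 on the log2 scale (limma adjusted p = 0.0279 and 0.0405). Of 46 members classed as bacterial homologues 30 fell and 5 rose, with a median of −0.07. Of 30 classed as found only in mitochondria 14 fell and 0 rose, with a median of −0.06. These classes followed the protein names used in ribosome structures, so MRPS18A and MRPS18B were counted among the 30 despite their bacterial homologue.

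In the MM1 lines MRPL37 had the lowest change of all members on the log2(TPM + 1) scale, which shrinks the changes of low genes. In TPM, MRPS24 was lower by more in MM1S, by 28.9% against 25.4% for MRPL37. MRPL37 had 221, 253 and 255 TPM in siIRF4 libraries of MM1R, against 299, 331 and 316 TPM in CTRL libraries. In MM1S it had 249, 251 and 245 TPM in siIRF4 libraries, against 324, 336 and 339 TPM in CTRL libraries. The groups did not overlap in either line, with log2 changes of −0.38 ± 0.051 in MM1R (limma adjusted p = 2.77e-06) and −0.42 in MM1S (adjusted p = 5.19e-07). In KMS-12-BM its 116, 130.0 and 129 TPM in siIRF4 libraries overlapped with 121, 128 and 122 TPM in CTRL libraries (adjusted p = 0.929), and in KMS-12-PE the change was −0.08 (adjusted p = 0.25).

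MRPL14 had the highest change in both MM1 lines. It had 294, 274 and 292 TPM in siIRF4 libraries of MM1R, against 228, 228 and 216 TPM in CTRL libraries. In MM1S it had 265, 260.2 and 267 TPM in siIRF4 libraries, against 189, 211 and 204 TPM in CTRL libraries. The groups did not overlap in either line, and the gene rose by 0.35 ± 0.038 in MM1R (limma adjusted p = 1.4e-07) and by 0.39 in MM1S (adjusted p = 2.66e-08). In KMS-12-PE it rose by 0.15 ± 0.038 (adjusted p = 0.00285), with 263, 280 and 271 TPM in siIRF4 libraries and 239, 246 and 245 TPM in CTRL libraries. In KMS-12-BM 259, 268 and 261 TPM in siIRF4 libraries overlapped with 261, 248 and 253 TPM in CTRL libraries (adjusted p = 0.415).

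The other leading changes in MM1R were falls of MRPS24 (−0.33, adjusted p = 0.0393) and of MRPS2 (−0.30 ± 0.049, limma adjusted p = 3.01e-05), the homologue of a bacterial small subunit protein, and rises of MRPS21 (0.23 ± 0.031) and MRPL10 (0.15 ± 0.057). In MM1S they were falls of MRPS24 (−0.41, adjusted p = 0.0108) and MRPS6 (−0.38 ± 0.058, adjusted p = 1.14e-05) and rises of MRPS9 (0.22 ± 0.060) and MRPL10 (0.19). MRPS6 had 80.2, 78.7 and 81.0 TPM in siIRF4 libraries of MM1S and 101, 106 and 107 TPM in CTRL libraries, without overlap. MRPS21 had 211, 205 and 207 TPM in siIRF4 libraries of MM1R and 179, 180.3 and 173 TPM in CTRL libraries, also without overlap. MRPS24 had 6.37, 5.90 and 7.21 TPM in siIRF4 libraries of MM1R and 7.63, 8.06 and 9.56 TPM in CTRL libraries, and at this level its call was lost under 7 of 32 alternative settings in MM1R and 3 in MM1S. The call of MRPL10 was lost under 4 settings in MM1R and 3 in MM1S, and that of MRPS9 in MM1S on recovered reads (adjusted p = 0.0661).

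In KMS-12-PE the leading changes were those of other members. MRPS22, a small subunit protein found only in mitochondria, had 112, 118 and 113 TPM in siIRF4 libraries, against 143, 141 and 146 TPM in CTRL libraries. The groups did not overlap, and the gene fell by 0.32 ± 0.051 on the log2 scale (limma adjusted p = 3.06e-05). MRPL47 fell by 0.26 ± 0.047 (adjusted p = 0.000138) and MRPL48 by 0.25 ± 0.057 (adjusted p = 0.00133). MRPL24, a protein near the exit tunnel, had 158, 162 and 160 TPM in siIRF4 libraries, against 130.2, 141 and 129.9 TPM in CTRL libraries, and rose by 0.25 ± 0.043 (adjusted p = 8.07e-05). MRPL36, a small zinc-binding protein, rose by 0.24 ± 0.051 (adjusted p = 0.000871).

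In KMS-12-BM the falls were those of MRPL4 (−0.19 ± 0.051, limma adjusted p = 0.0107), MRPS12 (−0.14, adjusted p = 0.0452), MRPL32 (−0.14, adjusted p = 0.0265) and MRPL12 (−0.13, adjusted p = 0.0365), and the rises those of MRPL27 (0.20 ± 0.060, adjusted p = 0.0255) and MRPL9 (0.10 ± 0.034, adjusted p = 0.0495). MRPL4 had 130.0, 141 and 134 TPM in siIRF4 libraries and 157, 150.3 and 156 TPM in CTRL libraries, without overlap. The calls of MRPL9, MRPS12, MRPL27 and MRPL32 in KMS-12-BM were lost under 25, 19, 7 and 5 of 32 alternative settings, and that of MRPL4 without the first siIRF4 library. The call of MRPL12 was lost without that library too, and its other settings were not counted. With another scaling of the libraries (median of ratios) 6 members fell and 0 rose in KMS-12-BM, and on recovered reads 9 fell and 0 rose.

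**Figure D3:**
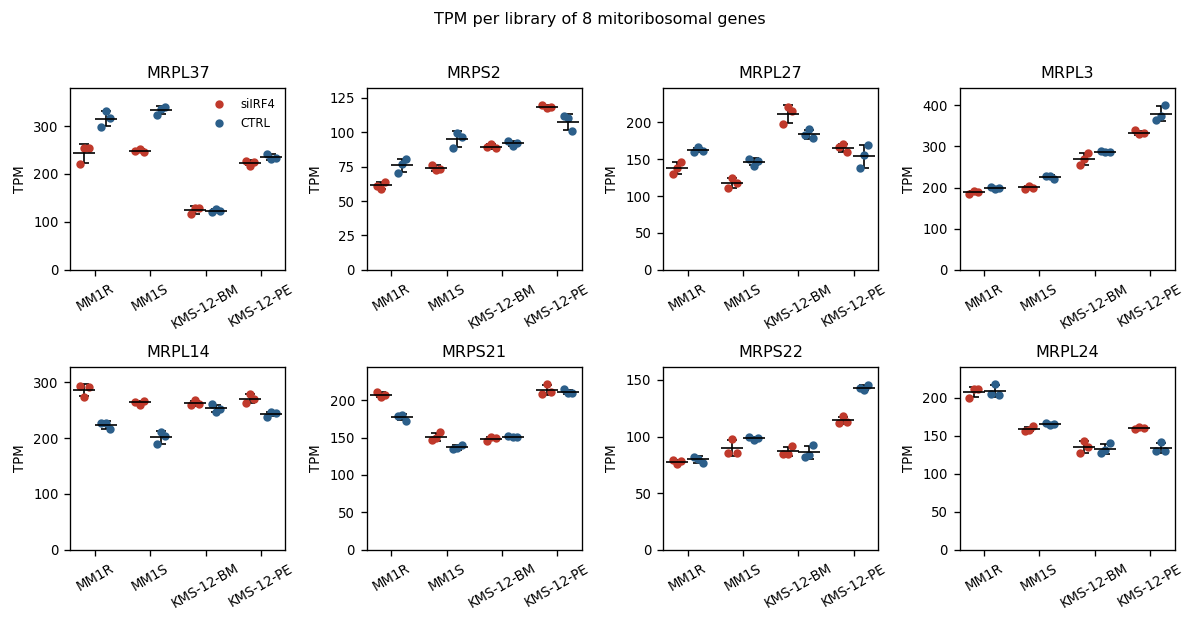
TPM of 8 members in each library (axes start at 0), with siIRF4 (red) left of CTRL (blue) in each of the 4 lines and bars at the mean ± SD (n = 3). MRPL37 and MRPL27 are lower and MRPL14 and MRPS21 higher in siIRF4 than in CTRL libraries of both MM1 lines, MRPL3 is lower in each line, and MRPS22 and MRPL24 differ in KMS-12-PE.

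The effect of siIRF4 was lower in the MM1 pair than in the KMS-12 pair for 29 members and higher for 8, against 20.0% and 25.0% of genes tested. Counting both directions, the share of members called was close to that of all genes tested, so only the direction set the members apart. MRPL27, whose bacterial homologue lies at the peptidyl transferase centre, had the largest difference, −0.43 ± 0.060 (limma adjusted p = 5.52e-06). It had 111, 124 and 117 TPM in siIRF4 libraries of MM1S against 151, 141 and 148 TPM in CTRL libraries, while in KMS-12-BM it had 198, 220.4 and 215 TPM in siIRF4 libraries against 183, 190.2 and 178 TPM in CTRL libraries. It fell in both MM1 lines, by 0.24 in MM1R and by 0.32 in MM1S on the log2 scale, and rose in KMS-12-BM.

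MRPS2 had a difference of −0.38 ± 0.049 (limma adjusted p = 1.92e-06). It had 60.9, 59.0 and 64.0 TPM in siIRF4 libraries of MM1R against 70.5, 77.0 and 80.3 TPM in CTRL libraries, and in KMS-12-PE 119.7, 118 and 119 TPM in siIRF4 libraries against 112, 110.2 and 101 TPM in CTRL libraries. All siIRF4 libraries were below CTRL in MM1R and above CTRL in KMS-12-PE. MRPL37 had a difference of −0.37 ± 0.051 (adjusted p = 4.57e-06). In the other direction MRPL14 had 0.27 ± 0.038 (adjusted p = 5.94e-06), MRPS9 0.20 ± 0.060 (adjusted p = 0.0105) and MRPS21 0.19 ± 0.031 (adjusted p = 4.26e-05).

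Within the pairs fewer effects differed. Between MM1R and MM1S only MRPL32 passed (0.25 ± 0.062, limma adjusted p = 0.0347, background 1.14% higher and 1.33% lower), with log2 changes of 0.06 in MM1R, which did not pass the test, and −0.19 in MM1S, where it fell. This count was 0 to 3 without single libraries and 0 with the other scaling. Between KMS-12-BM and KMS-12-PE the effect was higher in KMS-12-BM for 11 members and lower for 2 (background 15.9% and 7.11%). With median-of-ratios scaling this count was 3 higher and 6 lower, on recovered reads 3 higher and 9 lower, and without single libraries 8 to 12 higher and 1 to 4 lower. MRPS22 (0.34 ± 0.071, adjusted p = 0.00161), MRPL30 (0.28 ± 0.065, adjusted p = 0.00307) and MRPL19 (0.28 ± 0.068, adjusted p = 0.00458) were the highest, and MRPL24 (−0.23 ± 0.061, adjusted p = 0.00865) and MRPL20 (−0.18 ± 0.061, adjusted p = 0.0388) the lower ones. The calls of MRPL32 and MRPL20 were each lost under 11 of the alternative settings.

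Across the 77 members the log2 changes of MM1R and MM1S, which share no libraries, had a Pearson correlation of 0.85 (0.72 over all genes tested) and the same sign for 66 members. The other pairs of lines had correlations between 0.06 and 0.30 over the members and between 0.22 and 0.28 over all genes tested. The share of all genes tested with the same sign was not computed. Genes are not independent replicates, and these values are descriptions.

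Of genes that work with the mitochondrial ribosome, 6 lists were counted on average over the lines, beside the 26.5% and 33.1% of all genes tested called lower and higher. Of 6 mitochondrial ribosome proteins under other symbols 4 fell and 0 rose on average, with ICT1, a peptidyl-tRNA hydrolase built into the large subunit, at −0.19 and AURKAIP1 at −0.18. Of 26 tested assembly factors 7 fell, a share close to that of all genes, and 3 rose. They included MPV17L2 (−0.30) and MALSU1 (−0.17), which binds MRPL14 during assembly, and the GTPase MTG1 (0.19) and the RNase YBEY (0.17) in the other direction. Of 15 translation factors 9 fell and 3 rose, with SLIRP, a partner of LRPPRC in mRNA stability, at −0.24, the elongation factor GFM1 at −0.15, the membrane insertase OXA1L at 0.12 and the initiation factor MTIF3 at 0.11.

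Of 17 mitochondrial aminoacyl-tRNA synthetases 8 fell and 2 rose, with AARS2 at −0.19, SARS2 at 0.10 and HARS2 at 0.09. Of 9 genes for mitochondrial DNA maintenance and transcription 4 fell and 2 rose, with TFAM, which packages mitochondrial DNA, at −0.13, SSBP1 at −0.12, POLG2 at 0.15 and MTERF at 0.12. The direction varied by line in this list, with 4 higher and 0 lower in MM1R and 0 higher and 5 lower in KMS-12-PE. Of 47 nuclear respiratory chain genes 20 fell and 9 rose, with a median of −0.04, while in KMS-12-PE 6 fell and 10 rose. SDHA (0.15) and NDUFB5 (0.14) rose, and COX7A2 (−0.35) and ATP5G1 (−0.24) fell. COX7A2 had 1.38 ± 0.670 TPM in siIRF4 cells and 5.02 ± 1.59 TPM in CTRL cells of KMS-12-PE (SD, n = 3 each), against 350 to 568 TPM as means of the other groups, and its average change rests on its −1.34 in KMS-12-PE. Rows encoded by mitochondrial DNA, which the mitochondrial ribosome translates, are not analysed here.

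Cytosolic ribosomal proteins ran the other way. Of 30 cytosolic large subunit genes 28 rose and 0 fell on average (median 0.15), and of 28 small subunit genes 26 rose and 1, RPS28, fell (median 0.13). RPL3 rose by 0.25, RPL10 by 0.22 and RPS27 by 0.25. The summed TPM of these genes was 141200 ± 1990 in siIRF4 cells and 121200 ± 4380 in CTRL cells of MM1R (SD, n = 3 each). Relative to the sum of the mitochondrial members it was 15.6 and 12.6 times as high in siIRF4 and CTRL cells of MM1R, 17.5 and 14.0 times in MM1S, 20.3 and 19.8 times in KMS-12-BM and 13.9 and 12.4 times in KMS-12-PE, with no overlap in any line. In KMS-12-BM 1 large and 0 small subunit genes rose, and the list medians there turned negative with median-of-ratios scaling (−0.03 for the large and −0.04 for the small subunit). TPM of a library sum to a fixed total, so values of one gene group depend on those of others, and that dependence was not tested here.

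**Figure D4:**
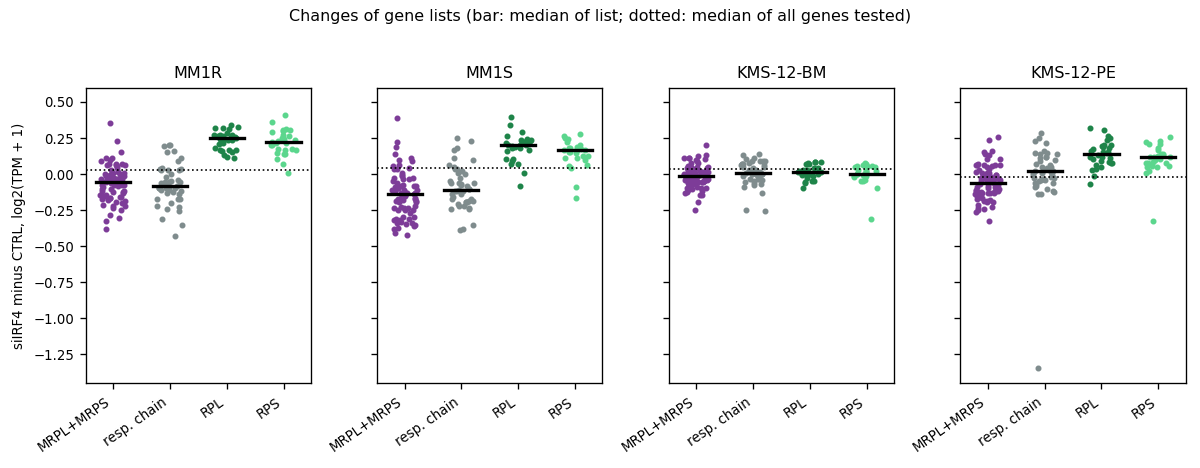
Log2 changes of TPM, siIRF4 minus CTRL, in each line for the mitochondrial ribosomal protein genes, the nuclear respiratory chain genes and the cytosolic large and small subunit genes, with 1 point per gene, a bar at the median and a dotted line at the median of all genes tested. In MM1R, MM1S and KMS-12-PE the cytosolic lists lie mostly above zero and the mitochondrial members mostly below, and in KMS-12-BM both lie near zero.

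CTRL levels of the members differed between the lines, beside changes with siIRF4 that reached at most 31.1% of a member's CTRL mean. Over all genes tested, the quartiles of the log2 CTRL difference, MM1 minus KMS-12 lines, were −0.634 and 0.57, against −0.492 and 0.22 over members. The fold of the highest over the lowest CTRL mean over the 4 lines, computed for members only, had a median of 1.80, and 24 members exceeded 2-fold. It was lowest for MRPL51 (1.24) and highest for MRPL1 (5.65). KMS-12-PE had the highest CTRL mean for 44 members (29.3% of all genes tested), MM1S for 15 (16.7%), KMS-12-BM for 10 (30.1%) and MM1R for 8 (23.8%).

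Between the MM1 and the KMS-12 lines 43 members were lower and 28 higher in MM1 CTRL cells (background 44.8% and 40.4%). The lower ones were led by MRPL13 (−1.42), MRPS17 (−1.29), MRPL50 (−1.28), MRPL18 (−1.21) and MRPL49 (−1.17), and the higher ones by MRPL54 (1.34), MRPL37 (0.92), MRPS6 (0.89), MRPL41 (0.79) and MRPL1 (0.56). KMS-12-BM had the lowest level of MRPL1 and MRPL41, and KMS-12-PE was above both MM1 lines for MRPL1. MRPL1 averaged 49.7, 62.8, 15.6 and 88.3 TPM in CTRL cells of MM1R, MM1S, KMS-12-BM and KMS-12-PE, and MRPL41 268, 250.4, 92.8 and 240.5 TPM. MRPL13 averaged 76.8, 76.5, 172 and 247 TPM in CTRL cells of MM1R, MM1S, KMS-12-BM and KMS-12-PE, so the MM1 lines were close to each other and the KMS-12 lines higher. MRPL54 averaged 239, 254, 74.3 and 126 TPM in the same order, which is the reverse pattern.

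Within the pairs, 40 members were lower and 13 higher in MM1R than in MM1S (background 27.6% and 29.7%), led by MRPL50 (−0.78), MRPL47 (−0.72) and MRPL45 (−0.60), and by MRPS26 (0.53), MRPS24 (0.44) and MRPS21 (0.37). In KMS-12-BM 55 members were lower and 13 higher than in KMS-12-PE (background 40.0% and 37.3%), with a member median of −0.33 beside −0.01 over all genes tested. MRPL1 had the largest difference, −2.42 ± 0.076, and averaged 15.6 TPM in KMS-12-BM and 88.3 TPM in KMS-12-PE. MRPL45, which anchors the ribosome at the inner membrane, averaged 23.5 TPM in KMS-12-BM and 112 TPM in KMS-12-PE (−2.21). MRPS23 followed with −1.60, and MRPL10 (1.06), MRPS24 (0.91) and MRPS16 (0.79) were the higher ones. MRPL1 also fell in MM1R, MM1S and KMS-12-PE with siIRF4, and its change in KMS-12-BM, where it was lowest, was −0.04 (adjusted p = 0.773).

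**Figure D5:**
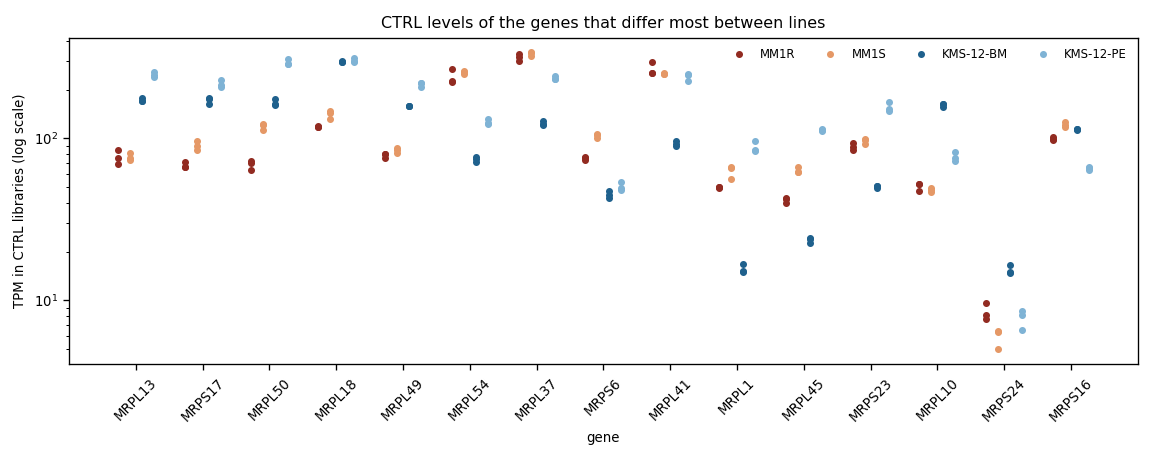
CTRL levels in TPM (log axis) of 15 members, with 1 point per CTRL library of each of the 4 lines. Shown are the largest called differences per direction between MM1 and KMS-12 lines and between KMS-12-BM and KMS-12-PE. MRPL1 and MRPL45 are lowest in KMS-12-BM and highest in KMS-12-PE, and MRPL54 is higher in both MM1 lines.

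Some members share sequence with other rows. In the GENCODE annotation 27 members overlap an exon of another listed gene, 6 of them on the same strand (MRPL28, MRPL53, MRPS5, MRPS6, MRPS16 and MRPS24) and 22 on the opposite strand. The latter include members with leading changes, such as MRPL37, MRPS2, MRPS22, MRPL32, MRPL47 and MRPS12. Of the members, 34 have named pseudogenes, 75 in all, with 8 for MRPS21. The handling of strand and of reads that match several places is not given in the sources used here, so values of these members are less certain. Of separately listed rows, the readthrough URGCP-MRPS24 reached 0.37 TPM in its highest library, and the highest pseudogene row, MRPL45P2, reached 4.87 TPM.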

How the data were processed

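RNA-seq of 24 libraries, 3 per group, was used as TPM values that the authors deposited, 1 column per library. STAR, featureCounts, FastQC and MultiQC with hg19 are named per the submitters' processing notes. The annotation, gene lengths and strand setting were not given in the sources used here. A total of 28 rows named by calendar dates and 1 row without a name were left out of 25370.

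Groups followed the labels. log2(TPM + 1) of the 15113 genes with at least 1 TPM in at least 3 libraries was fitted as 8 group means in limma 3.58.1 (R 4.3.3), with a trended, robust prior, and p-values were Benjamini-Hochberg adjusted over all genes tested, two-sided, with calls under 0.05. Effects were compared between lines by interaction contrasts. A fold change on this scale understates that of low genes. Replicate numbers did not pair libraries (correlations of deviations between −0.088 and 0.086).

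Whole reads were recovered from TPM for 20479 genes within 0.02 reads (at least 99.9585% of each library's TPM), and used for voom as an alternative. Motifs of at most 9 letters, set after a first search with up to 10, were searched with Python 3.11.15. Fits were tested on simulated data. The members and lists were chosen with earlier results of these data known. Members named are the largest called changes of each comparison, with 8 at most per direction on average and 3 per line or line pair (5 for MM1 against KMS-12), the highest and lowest by level, and members that share sequence with other rows. Values of some single genes of the other lists are not reported here.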

Additional observations from a re-analysis of the deposited data

Results flagged for a closer look

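The siIRF4 effect itself differed between lines for more members than are given here in the test of that difference (limma interaction contrast, adjusted p under 0.05, 3 libraries per group), and the 12 below are the largest called differences, at most 3 per direction in each contrast. Between the MM1 and the KMS-12 lines the difference was −0.43 for MRPL27, −0.38 for MRPS2, −0.37 for MRPL37, 0.27 for MRPL14, 0.20 for MRPS9 and 0.19 for MRPS21 on the log2 scale. Each of the first 3 fell in both MM1 lines. Between MM1R and MM1S it was 0.25 for MRPL32. Between KMS-12-BM and KMS-12-PE it was −0.23 for MRPL24, −0.18 for MRPL20, 0.34 for MRPS22, 0.28 for MRPL30 and 0.28 for MRPL19. Leaving out single libraries is described below with the processing.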

How the results depend on the processing

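Alternatives tried were median-of-ratios scaling, a pseudocount of 0.1, no filter on low values, a filter on a mean of 5 TPM, a prior without trend, the replicate number as a block, voom on recovered reads, separate fits of the lines compared, and leaving out each of the 24 libraries. The average falls (45) stayed at 42 to 47 without single libraries, at 47 with median-of-ratios scaling and at 52 on recovered reads. Of 70 values of single members, 54 kept direction and call throughout, 16 lost the call somewhere and 0 changed direction. The counts that moved by over 1.5 times were mostly small, and the cause was not tested. On recovered reads they were 2 higher in MM1R (4 as reported), 1 higher in MM1S (4), 0 higher and 9 lower in KMS-12-BM (2 and 4), 3 higher on average (5), 2 higher for the effect of MM1 minus KMS-12 (8), 2 higher for the effect of MM1R minus MM1S (1), 3 higher and 9 lower for the effect of KMS-12-BM minus KMS-12-PE (11 and 2) and 8 higher in CTRL of MM1R minus MM1S (13). With median-of-ratios scaling they were 0 higher in KMS-12-BM, 0 higher for the effect of MM1R minus MM1S, and 3 higher and 6 lower for that of KMS-12-BM minus KMS-12-PE. In KMS-12-BM, 1 was higher with a pseudocount of 0.1, and 1 higher and 2 lower with no filter, with no trend or in separate fits. Separate fits gave 2 higher in MM1R, 0 higher for the effect of MM1R minus MM1S and 4 lower for that of KMS-12-BM minus KMS-12-PE, a prior without trend gave 0 higher and 1 lower for these 2 effects, and no filter gave 1 lower for the second one. With the replicate block, which pairs numbers that the data do not pair, 0 members were higher in KMS-12-BM and 0 for the effect of MM1R minus MM1S, and 21, 42, 3, 17 and 42 fell in MM1R, MM1S, KMS-12-BM, KMS-12-PE and on average. The large minus small subunit median in KMS-12-BM was −0.0106, and 0.0102 with subunits by structure and 0.0108 by the log2 ratio of summed TPM. Leaving out single libraries gave 2 to 4 higher and 14 to 26 lower in MM1R, 3 to 5 and 37 to 49 in MM1S, 0 to 2 and 0 to 6 in KMS-12-BM and 3 to 7 and 16 to 23 in KMS-12-PE. It gave 0 to 3 higher for the effect of MM1R minus MM1S, and 8 to 12 higher and 1 to 4 lower for that of KMS-12-BM minus KMS-12-PE. The large minus small median ranged from −0.0471 to −0.0262 in MM1R, −0.0623 to −0.0247 in MM1S, −0.0106 to 0.0222 in KMS-12-BM and 0.0024 to 0.0401 in KMS-12-PE. Depth limits MRPS24 most, with as few as 24 reads in a library.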

Other observations

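The members lie on 21 chromosomes. Of 77 members 17 (22.1%) have, in the GENCODE annotation, a protein-coding neighbour on the other strand whose start lies within 1000 bases, against 9.55% of 12372 coding genes tested. In CTRL cells the 7 members on chromosome 17 had a median log2 difference of −0.79 between KMS-12-BM and KMS-12-PE, beside 0 over all genes tested on it, and the 8 members on chromosome 1 one of −0.63 beside −0.19. This was not limited to these chromosomes, as the median of all 77 members was −0.33. Members also lay below the genes of chromosome 19 (−0.195 beside 0.354), chromosome 2 (−0.611 beside −0.364) and chromosome 3 (−0.462 beside −0.117). MYC, whose product binds E-boxes, averaged 434 TPM in siIRF4 cells and 315 TPM in CTRL cells of MM1R, and 823 TPM and 1144 TPM in KMS-12-BM (n = 3 each), with log2 changes of 0.46 and −0.47 that both passed the limma test. The mean level of a member and its average log2 change had a Pearson correlation of −0.01 over the 77 members, which are not independent.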
